A study of Mus musculus with 29 samples.

Results

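Fatty acid oxidation in Maf1-deficient liver was followed through 36 genes, taken by symbol from the 12992 genes of the liver RNA-seq table. MAF1 is a repressor of RNA polymerase III. The 36 members comprised 3 regulators, 15 mitochondrial, 9 peroxisomal and 4 microsomal enzymes or carriers, and 5 further targets of PPARα. All 36 passed the filter on low values in every comparison, at least 1 CPM in at least 1 mouse. For the filter, CPM is the count relative to the library total, and the levels below are CPM after TMM scaling. The lowest count of a member in a mouse was 54.

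Livers came from 29 male C57BL/6 mice of 13 to 14 weeks, fasted overnight and refed for 4 h. The whole-body cohort had 5 Maf1-/- mice, which lack the gene in all cells, and 7 Ctrl mice, all Chow-fed. The Chow-fed hepatocyte cohort had 4 Maf1hep-/- and 4 Ctrl mice, and the HF cohort 4 Maf1hep-/- and 5 Ctrl mice given a high fat diet with 60% of calories from lard from 4 to 5 weeks of age. Maf1hep-/- mice carried a floxed Maf1 gene and hemizygous albumin-promoter Cre, active in hepatocytes, and their Ctrl mice carried the floxed gene without Cre. Each mouse gave 1 library, so other liver cells of Maf1hep-/- mice kept the gene and were included in every sample.

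Long-chain fatty acids enter mitochondria as carnitine esters and are shortened there by β-oxidation, which yields electrons and acetyl-CoA. Peroxisomes shorten very long chains and dicarboxylic acids, and microsomal Cyp4a enzymes start the ω-oxidation that makes dicarboxylic acids. PPARα, a nuclear receptor activated by fatty acids, induces genes of all 3 routes in fasted rodent liver together with its coactivator PGC-1α (Ppargc1a) and the transcription factor CREBH (Creb3l3). It binds as a heterodimer with RXR to a direct repeat of AGGTCA with a single base as spacer.

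Promoters of 300 bases, from 250 before to 50 after the start of the gene, were held for 27 of the 36 members in RefSeq (GRCm38.p6), and 3 sets are shown, Fabp1 for the repeat it holds and the others for genes called between diets below. The exact repeat, AGGTCA next to AGGTCA in the same direction with any 1 base between, was searched on both strands and was in 0.0396% of all 32851 promoters and in 0 of the 27. The relaxed repeat, with any base in place of the T of each copy, includes every exact one and was in 0.381% of all promoters and in 1 member, Fabp1, the liver fatty acid binding protein. Capitals mark that repeat on the reverse strand at chr6:71199629-71199928 (+).
Fabp1: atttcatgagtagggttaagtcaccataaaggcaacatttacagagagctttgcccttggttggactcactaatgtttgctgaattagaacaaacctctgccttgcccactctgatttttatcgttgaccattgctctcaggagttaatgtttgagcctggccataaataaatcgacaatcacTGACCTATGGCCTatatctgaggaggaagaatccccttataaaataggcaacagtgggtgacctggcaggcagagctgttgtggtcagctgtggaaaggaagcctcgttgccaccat

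The half-site AGGTCA alone was in 16.3% of all promoters and in 7 of the 27 members (25.9%), namely Acadm, Acadvl, Acot3, Acot4, Cpt1a, Creb3l3 and Fabp1. Here and for the repeats, a member counts if any promoter held for it has the sequence, while the other share counts single promoters. Cpt1a, at chr19:3323051-3323350 (+), and Acot4, at chr12:84038129-84038428 (+), are shown because both were higher on the HF diet in both genotypes, with the half-site in capitals, again read on the reverse strand. The start that RefSeq gives for Cpt1a lies downstream of the start of its longest extent in GENCODE.
Cpt1a: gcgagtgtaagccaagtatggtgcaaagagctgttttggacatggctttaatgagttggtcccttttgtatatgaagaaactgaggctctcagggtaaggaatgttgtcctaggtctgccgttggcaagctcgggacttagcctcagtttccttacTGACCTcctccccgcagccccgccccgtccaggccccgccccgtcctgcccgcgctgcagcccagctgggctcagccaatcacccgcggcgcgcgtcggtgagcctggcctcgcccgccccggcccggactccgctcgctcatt
Acot4: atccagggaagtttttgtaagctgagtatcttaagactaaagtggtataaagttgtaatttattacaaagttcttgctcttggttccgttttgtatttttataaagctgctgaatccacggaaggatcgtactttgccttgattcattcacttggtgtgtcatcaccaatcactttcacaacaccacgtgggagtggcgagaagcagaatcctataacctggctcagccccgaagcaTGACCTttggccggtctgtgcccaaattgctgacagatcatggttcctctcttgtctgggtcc

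Hadha and Hadhb, the 2 subunit genes of the mitochondrial trifunctional protein, lie back to back on chromosome 5, Hadha at chr5:30118304-30155162 (-) and Hadhb at chr5:30155248-30184593 (+), with 85 bases between them (GENCODE vM21, GRCm38). Their shared upstream region is shown as the Hadhb promoter, chr5:30155003-30155302 (+), since the pair moved apart on the HF diet, with the 85 bases in capitals.
Hadhb: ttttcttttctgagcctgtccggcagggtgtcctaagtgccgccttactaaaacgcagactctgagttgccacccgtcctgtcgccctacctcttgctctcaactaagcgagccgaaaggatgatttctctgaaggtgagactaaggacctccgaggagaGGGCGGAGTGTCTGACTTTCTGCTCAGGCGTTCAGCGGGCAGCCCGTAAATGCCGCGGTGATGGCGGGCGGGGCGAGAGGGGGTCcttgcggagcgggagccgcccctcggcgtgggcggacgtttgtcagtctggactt

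Libraries held 43564164 to 75682301 counts in the 20 Chow-fed mice and 25544816 to 32319706 in the 9 HF-fed mice. HF libraries were sequenced separately, for 150 cycles on 2 lanes, and all their values were whole numbers, against 69.8% to 74.8% of values in Chow-fed mice. Diet, sequencing, depth and counting therefore cannot be told apart. Maf1 itself stood at 0.0771 to 1.09 CPM in Maf1-/- mice and 4.93 to 10.8 CPM in Ctrl. It stood at 2.83 to 4.21 CPM in Chow-fed Maf1hep-/- mice and 14.9 to 18.8 CPM in Ctrl, and at 1.38 to 1.81 CPM in HF-fed Maf1hep-/- mice and 12.6 to 18.9 CPM in Ctrl. Ctrl mouse 2 of the whole-body cohort stood apart, being the lowest of its 7 mice in 38.1% of all genes and the highest in 30.3%. All 8 hepatocyte, 10 Kupffer cell and 8 stellate cell markers were measured, with 1 of 6 adipocyte and 0 of 6 lymphocyte markers. Nothing in the labels says that mice were littermates, and p-values measure the spread between mice of these cohorts.

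Per kilobase of exon, merged over all annotated transcripts of a gene, the members spanned a wide range in Chow-fed Ctrl mice of the hepatocyte cohort. Fabp1 was the highest at 5841 CPM per kb, followed by the ω-hydroxylases Cyp4a14 at 1893 and Cyp4a10 at 1532 CPM per kb and by Ehhadh, the peroxisomal bifunctional enzyme, at 643 CPM per kb. Among the mitochondrial enzymes, the thiolase Acaa2 had 377 CPM per kb and the very long chain acyl-CoA dehydrogenase Acadvl had 163 CPM per kb. Cpt1a, which makes acylcarnitines at the outer membrane, had 58.5 CPM per kb, and Hadha had 59.3 CPM per kb. Such values depend on the length used. Cpt1a has 7642 merged exon bases but 4317 in its longest transcript, and Hadha 8730 but 4017. At the low end stood Cyp4a31 at 4.80, the pyruvate dehydrogenase kinase Pdk4 at 1.97 and Ppargc1a at 0.817 CPM per kb. Ppara had 23.1 CPM per kb.

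Several members share sequence with neighbouring copies. Cyp4a14, Cyp4a10, Cyp4a31 and Cyp4a32 form a cluster on chromosome 4, and Acot2, Acot1, Acot4 and Acot3 one on chromosome 12. Of all 50-base stretches of the longest transcript, 46.8% in Cyp4a32, 30.5% in Cyp4a10 and 21.7% in Cyp4a31 also occurred in another gene, against 0.2% in Cyp4a14. The shares were 35.5% in Acaa1b and 27.7% in Acot2, but 0% in Ehhadh, Cpt1a, Ppara, Acadl, Vnn1 and Angptl4. Counts of 9 members were fractional in all 20 Chow-fed mice (Acadvl, Cyp4a10, Cyp4a31, Cyp4a32, Acot1, Acot2, Acot4, Acaa1a and Acaa1b), those of 6 in some, and those of 21 were whole in all mice. Levels of the 9 are uncertain where reads were divided between copies or overlapping genes.

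**Figure D1:**
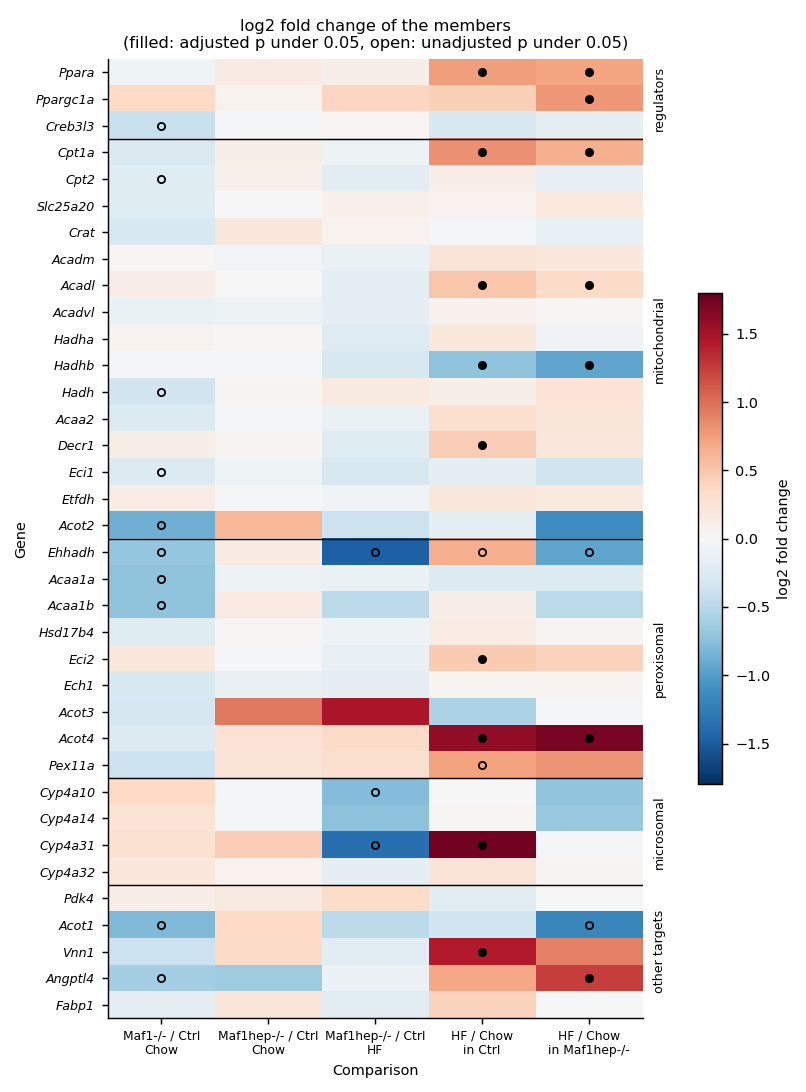
log2 fold change (colour) of the 36 members (rows, by role) in 5 comparisons (columns), with filled circles at an adjusted p under 0.05 and open circles at an unadjusted p under 0.05 from edgeR. Filled circles stand only in the 2 columns that compare diets, 7 in Maf1hep-/- and 9 in Ctrl mice. In these 2 columns 45.2% and 50.6% of all genes were called, and diet cannot be told apart from sequencing.

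The first comparison asked whether loss of Maf1 in all cells altered these genes in Chow-fed mice. No member passed the test, and 10 of 36 (27.8%) had an unadjusted p under 0.05, all of them lower in Maf1-/- livers. These were the peroxisomal Ehhadh, Acaa1a and Acaa1b, the mitochondrial Hadh, Cpt2, Eci1 and Acot2, the regulator Creb3l3, the cytosolic thioesterase Acot1 and the lipoprotein lipase inhibitor Angptl4. In edgeR's quasi-likelihood test with Benjamini-Hochberg adjustment, 2 of 12796 genes were called (0.0156%), and 15.4% of all genes were lower at an unadjusted p under 0.05 (26.3% in either direction). The median log2 fold change was -0.22 over the members and 0.00 over all genes. In these bulk samples, fewer cells of a type and less RNA per cell cannot be told apart.

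Ehhadh had 1220, 1775, 2119, 1089 and 1759 CPM in the 5 Maf1-/- mice, against 1661 to 3376 CPM with a median of 2567 CPM in the 7 Ctrl mice. The groups overlapped, 3 Maf1-/- mice lying above the lowest Ctrl mouse. The log2 fold change was -0.70 (SE 0.20, adjusted p = 0.152 from edgeR).

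The thiolase Acaa1b, which cleaves the shortened chain, had 684, 719, 733, 346 and 855 CPM in Maf1-/- mice, against 539.8 to 1557 CPM with a median of 1141 CPM in Ctrl. Its near copy Acaa1a averaged 62.7 ± 20.8 CPM in Maf1-/- mice (SD, n = 5) and 106 ± 36.3 CPM in Ctrl (SD, n = 7). Both had a log2 fold change of -0.73 (adjusted p = 0.152 and 0.158 from edgeR). Since 35.5% of the 50-base stretches of Acaa1b occur in Acaa1a, the pair is not 2 separate measurements. Ctrl mouse 2, at 539.8 CPM for Acaa1b and 36.6 CPM for Acaa1a, was the lowest Ctrl mouse for both.

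Acot1 had 75.0, 51.4, 81.6, 33.4 and 86.4 CPM in Maf1-/- mice, against 77.0 to 155 CPM with a median of 109.6 CPM in Ctrl. The log2 fold change was -0.79 (SE 0.23, adjusted p = 0.152 from edgeR), and the groups overlapped through 1 Ctrl mouse. Acot2, its mitochondrial relative, averaged 13.5 ± 4.14 CPM in Maf1-/- mice (SD, n = 5) and 25.6 ± 11.5 CPM in Ctrl (SD, n = 7), a log2 fold change of -0.88 (SE 0.29, adjusted p = 0.152 from edgeR). Since 27.7% of the 50-base stretches of Acot2 occur elsewhere, mostly in Acot1, the pair is not 2 separate measurements.

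Among the regulators, Creb3l3 had 174.8, 150.3, 145, 112 and 162 CPM in Maf1-/- mice, against 143 to 246 CPM with a median of 202 CPM in Ctrl, a log2 fold change of -0.41 (SE 0.13, adjusted p = 0.152 from edgeR). Ppara, at 67.0 to 100.5 CPM in Maf1-/- mice and 72.3 to 121 CPM in Ctrl, had a log2 fold change of -0.08 (SE 0.14, adjusted p = 0.710). Ppargc1a, at 6.33 to 10.9 CPM in Maf1-/- mice and 4.63 to 7.83 CPM in Ctrl, had 0.37 (SE 0.18, adjusted p = 0.209). The 3 regulators thus had log2 fold changes of both signs.

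By compartment, all 4 Cyp4a members had a log2 fold change above 0 (0.18 to 0.35, median 0.26), against 1 of 9 peroxisomal members (median -0.30) and 5 of 15 mitochondrial members (median -0.22), though 0 of the 4 had an unadjusted p under 0.05. Of 6 other microsomal ω-oxidation genes 4 lay below 0 (median -0.15), 1 of them with an unadjusted p under 0.05. No test compared the compartments. Cyp4a10, Cyp4a31 and Cyp4a32 share 50-base stretches with one another, so they are not separate measurements. Cyp4a10 had 3722, 2935, 4644, 3586 and 4302 CPM in Maf1-/- mice, against 2332 to 3859 CPM with a median of 3006 CPM in Ctrl, a log2 fold change of 0.35 (SE 0.17, adjusted p = 0.195 from edgeR). Pdk4, which keeps pyruvate out of mitochondrial oxidation, had 0.11 (SE 0.18, adjusted p = 0.674), at 6.13 to 8.49 CPM in Maf1-/- mice and 5.12 to 9.47 CPM in Ctrl.

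The number of calls moved with a single Ctrl mouse. Without Ctrl mouse 2, edgeR called 9 of 36 members (25%) among 4526 of 12792 genes (35.4%), 8 lower and 1 higher. The 8 were Acaa1a, Creb3l3, Acaa1b, Ehhadh, Acot1, Hadh, Cpt2 and Acot2, with 18.4% of all genes lower, and the 1 was Cyp4a10, with a log2 fold change of 0.44 (adjusted p = 0.0447) and 17% of all genes higher. Acaa1a then had -0.87 (adjusted p = 0.00783), Creb3l3 -0.46 (adjusted p = 0.0114) and Ehhadh -0.73 (adjusted p = 0.0189). The share over all genes was 35.4% here and 0.0156% with all mice. RUVr factors are terms for unwanted variation estimated from residuals. With limma-voom and 1 such factor 9 members were called against 33.6% of all genes, 7 lower (17.9% of all genes) and 2 higher, Cyp4a10 and Ppargc1a (15.7%), and with 3 factors 15 against 47.9%. DESeq2 called 2, Ehhadh and Acot1, both lower, against 2.46% of all genes, and limma-voom with no factor called 0.

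Of 50 other genes of these pathways, 0 passed in edgeR and 18 had an unadjusted p under 0.05, 17 lower and 1 higher. Over all genes the shares were 26.3% in either direction and 15.4% lower. The median log2 fold change of the 50 was -0.18. The hormone gene Fgf21, another PPARα target, stood at 0 to 1.54 CPM in Maf1-/- mice and 0.962 to 2.79 CPM in Ctrl (log2 fold change -1.28, adjusted p = 0.180). Fasting-induced genes summed to 277 to 588.5 CPM in Maf1-/- mice and 326 to 828.8 CPM in Ctrl, and stellate cell markers to 434 to 636 CPM in Maf1-/- mice and 361 to 505 CPM in Ctrl. Of the 8 stellate cell markers 5 lay above 0 and 3 below, with 3 higher and 1 lower at an unadjusted p under 0.05. Kupffer cell markers summed to 276.5 to 404 CPM in Maf1-/- mice and 260 to 490.5 CPM in Ctrl. Their part in the result was not tested.

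**Figure D2:**
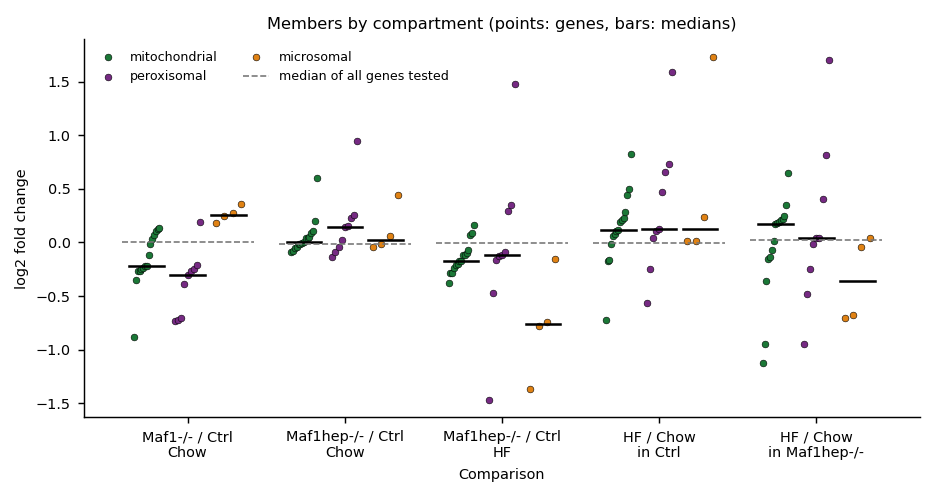
log2 fold change (vertical axis) of the 15 mitochondrial, 9 peroxisomal and 4 microsomal members (points, one per gene) in 5 comparisons (horizontal axis), with bars at the medians and a dashed line at the median of all genes tested. The microsomal median is the only one above 0 in Maf1-/- against Ctrl mice (0.26) and the lowest of the 3 in HF-fed Maf1hep-/- against Ctrl mice (-0.76).

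The same question was asked of hepatocytes alone in Chow-fed mice. Here 0 of 36 members passed and 0 had an unadjusted p under 0.05 in edgeR, against 0.0159% and 2.39% of 12570 genes. The median log2 fold change was 0.05 over the members, 0.01 over mitochondrial, 0.14 over peroxisomal and 0.02 over microsomal members. Without Maf1hep-/- mouse 2 the peroxisomal median was -0.0206, and the mitochondrial and microsomal medians also turned sign with single mice left out. DESeq2 and limma-voom with 0, 1 or 3 RUVr factors also called 0 members, as did every fit that left out 1 mouse.

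The smallest p-value belonged to Cyp4a31, with 14.9, 14.4, 12.6 and 23.5 CPM in Maf1hep-/- mice, against 14.9, 12.5, 10.2 and 10.6 CPM in Ctrl (log2 fold change 0.44, SE 0.20, adjusted p = 0.997 from edgeR). Ehhadh had 1442, 2488, 1596 and 3009 CPM in Maf1hep-/- mice and 2444, 1891, 1700 and 1635 CPM in Ctrl, a log2 fold change of 0.15 (SE 0.24). Maf1hep-/- mice lay on both sides of Ctrl for Ehhadh.

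Vnn1, the pantetheinase that recycles pantothenate, averaged 100.3 ± 38.2 CPM in Maf1hep-/- mice and 78.6 ± 9.28 CPM in Ctrl (SD, n = 4 each), a log2 fold change of 0.35 (SE 0.23). Fabp1 averaged 3761 ± 639 CPM in Maf1hep-/- mice and 3230.0 ± 377 CPM in Ctrl (SD, n = 4 each), a log2 fold change of 0.22 (SE 0.15). Acot3 had 11.4, 38.7, 5.23 and 6.60 CPM in Maf1hep-/- mice and 3.37, 4.03, 13.2 and 11.7 CPM in Ctrl, a log2 fold change of 0.95 (SE 0.67) with all mice and of -0.0512 without Maf1hep-/- mouse 2. The remaining named members had log2 fold changes of 0.15 for Ppara, 0.06 for Ppargc1a, -0.03 for Creb3l3, -0.04 for Cyp4a10 and 0.16 for Pdk4, each with an adjusted p of 0.997 from edgeR.

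Of the 50 other pathway genes 0 passed and 1 had an unadjusted p under 0.05, against 2.39% of all genes. Fgf21 had a log2 fold change of 0.38 (adjusted p = 0.997 from edgeR).

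Whether whole-body and hepatocyte deletion differed on chow was tested as a difference of the genotype effects. In edgeR 0 of 36 members and 0 of 12857 genes (0%) passed, while 8 members (22.2%) and 12.3% of all genes had an unadjusted p under 0.05, the 8 all lower in the whole-body direction, as were 7.5% of all genes. The 3 smallest p-values belonged to Cpt2, the inner-membrane carnitine transferase (difference in log2 fold change -0.33, SE 0.11), Acot1 (-1.18, SE 0.42) and Ehhadh (-0.88, SE 0.33), each with an adjusted p of 0.398. The 2 cohorts are also 2 mouse lines, so line and cohort cannot be told apart from the place of deletion. limma-voom called 3 members with 1 RUVr factor (14% of all genes) and 4 with 3 (24.5% of all genes), all lower, DESeq2 called 0, and edgeR called 2 (Cpt2 and Acaa1b) without Ctrl mouse 2 of the whole-body cohort (8.16% of all genes). Of the 50 other pathway genes 0 passed and 11 had an unadjusted p under 0.05, all lower.

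Under the HF diet, deletion in hepatocytes went with lower levels of Ehhadh and the Cyp4a genes, in the mean but not past the test. In edgeR 0 of 36 members passed, as did 2 of 12378 genes (0.0162%), and 3 members (8.33%) had an unadjusted p under 0.05, all lower, against 2.74% of all genes lower and 6.04% in either direction. The 3 were Cyp4a31, Ehhadh and Cyp4a10. The paper reports lower protein from Ehhadh and Cyp4a10 in livers of HF-fed Maf1hep-/- mice. Members were chosen with earlier results of these data known, so their share against all genes is no separate support. The median log2 fold change was -0.14 over the members, -0.17 over mitochondrial, -0.11 over peroxisomal and -0.76 over microsomal members. Without Maf1hep-/- mouse 2 the peroxisomal median was 0.037. The microsomal median rests on 4 genes, of which Cyp4a10, Cyp4a31 and Cyp4a32 share sequence and are not separate measurements.

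Ehhadh had 1844, 1350, 505 and 737 CPM in the 4 Maf1hep-/- mice, against 2971, 2764, 4005, 4014 and 1422 CPM in the 5 Ctrl mice. Maf1hep-/- mice 3 and 4 were the lowest, and only Ctrl mouse 5 lay among the Maf1hep-/- values. The log2 fold change was -1.47 (SE 0.40, adjusted p = 0.555 from edgeR).

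Cyp4a31 had 19.0, 26.9, 10.7 and 7.06 CPM in Maf1hep-/- mice, against 30.4, 39.4, 43.1, 55.3 and 33.5 CPM in Ctrl. It was the 1 member of 36 whose groups did not overlap, a pattern found in 0.856% of all genes in this direction. Its level is uncertain, since 21.7% of its 50-base stretches occur in another gene, among them the far more abundant Cyp4a10. The log2 fold change was -1.36 (SE 0.33, adjusted p = 0.472 from edgeR). DESeq2 and limma-voom with 3 RUVr factors called this gene alone of the members, DESeq2 with an adjusted p of 0.00872, against 0.453% of all genes in DESeq2 and 1.41% in limma-voom.

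Cyp4a10 had 3139, 2099, 1351 and 1128 CPM in Maf1hep-/- mice, against 3313, 3072, 3884, 4029 and 2123 CPM in Ctrl (log2 fold change -0.78, SE 0.30, adjusted p = 0.774 from edgeR). Cyp4a14 followed the same mice, with 5279, 3860, 1188 and 1845 CPM in Maf1hep-/- mice and 4713, 6361, 5696, 5705 and 2634 CPM in Ctrl (-0.74, SE 0.40). Maf1hep-/- mice 3 and 4 were the 2 lowest of all 9 mice for Ehhadh, Cyp4a10, Cyp4a14 and Cyp4a31. Cyp4a32, the fourth gene of the cluster, lay at 16.8 to 34.3 CPM in Maf1hep-/- mice and 17.8 to 39.8 CPM in Ctrl (-0.16, SE 0.23).

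**Figure D3:**
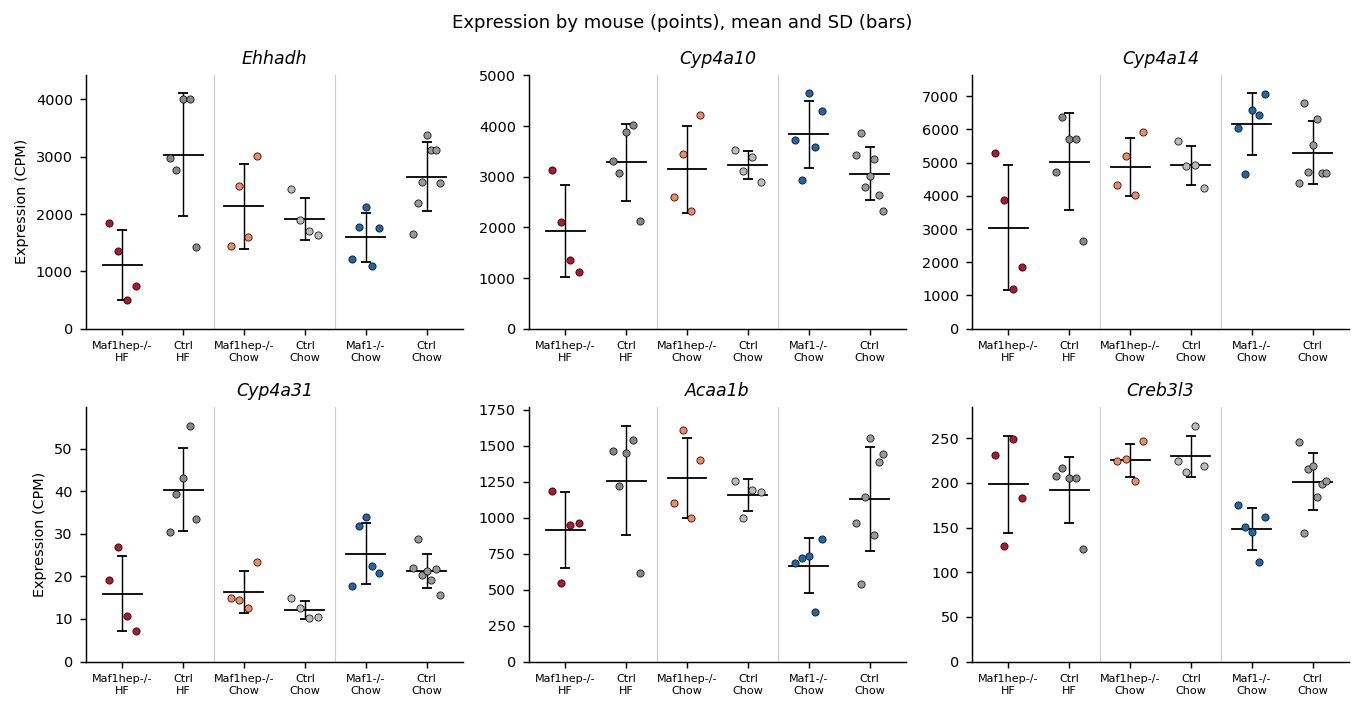
Expression in CPM (vertical axis) of 3 peroxisomal or regulatory and 3 microsomal members in each mouse (points), by group (horizontal axis), with bars at the mean and SD. For Ehhadh, 3 of 4 HF-fed Maf1hep-/- mice lie below the lowest HF-fed Ctrl mouse (1422 CPM), and for Cyp4a31 all 4 lie below the lowest Ctrl mouse (30.4 CPM).

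Acot3, a peroxisomal thioesterase, had the largest positive value, a log2 fold change of 1.48 (SE 0.70, adjusted p = 0.824 from edgeR), with 38.1, 2.53, 13.95 and 6.68 CPM in Maf1hep-/- mice and 10.6, 5.94, 2.78, 6.59 and 1.51 CPM in Ctrl. Maf1hep-/- mice 1 and 3 lay above all Ctrl mice and mouse 2 lay among the lowest, and without mouse 1 the log2 fold change was 0.49. The regulators had log2 fold changes of 0.10 for Ppara (SE 0.25, adjusted p = 0.974), 0.39 for Ppargc1a (SE 0.25, adjusted p = 0.878) and 0.03 for Creb3l3 (SE 0.21, adjusted p = 0.989). With the replicate number as a block Ppara had -0.065 and Creb3l3 -0.14, and without Ctrl mouse 5 Creb3l3 had -0.089. Pdk4 had 0.33 (SE 0.28, adjusted p = 0.916), at 5.34 to 12.1 CPM in Maf1hep-/- mice and 4.03 to 9.49 CPM in Ctrl.

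A pairing of same-numbered mice in this cohort was inferred from these same values, and the methods call the data unpaired. For Maf1hep-/- mice 2 and 3 a differently numbered Ctrl mouse was closer. Results with this block are therefore no separate support. With the replicate number as a block 0 members passed in edgeR, but 20 of 36 (55.6%) had an unadjusted p under 0.05 against 13.5% of all genes. Of these, 18 were lower (7.14% of all genes) and 2 higher, Pdk4 and Ppargc1a (6.34% of all genes). Ehhadh then had a log2 fold change of -1.805 (adjusted p = 0.116) and Cyp4a31 of -1.54 (adjusted p = 0.160). Of all genes, 45 of 12378 were called with the block (0.364%). The block also drops Ctrl mouse 5, which has no partner. Without that mouse and without the block, 10 members had an unadjusted p under 0.05, 9 of them lower, against 9.64% of all genes in either direction and 4.85% lower.

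Of the 50 other pathway genes 0 passed in edgeR and 7 had an unadjusted p under 0.05, 4 higher and 3 lower. Over all genes the shares were 6.04% in either direction and 2.74% lower. Fgf21, at 3.27 to 22.9 CPM in Maf1hep-/- mice and 2.75 to 8.75 CPM in Ctrl, had a log2 fold change of 1.496 (SE 0.47, adjusted p = 0.666). All 6 other microsomal ω-oxidation genes lay below 0 (median -0.30), 2 with an unadjusted p under 0.05. Hepatocyte markers summed to 86020 to 98100 CPM in Maf1hep-/- mice and 70780 to 81600 CPM in Ctrl, with 6 of 8 above 0 and 2 below. Refeeding-induced lipogenic genes summed to 1450 to 4982 CPM in Maf1hep-/- mice and 771 to 2160 CPM in Ctrl. Of these 6 genes 4 lay above 0 and 2 below (median log2 fold change 0.25), 1 of them higher at an unadjusted p under 0.05. Erythroid markers summed to 58.1 to 151.3 CPM in Maf1hep-/- mice and 54.9 to 95.2 CPM in Ctrl, with all 5 above 0 (median log2 fold change 1.49) and 3 at an unadjusted p under 0.05. Their part in the result was not tested.

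The members varied more between mice on the HF diet than on chow. The median coefficient of variation over the 36 members was 30.5% in HF-fed Maf1hep-/- mice and 23.7% in HF-fed Ctrl, against 15% and 10.9% in the Chow-fed mice of the same genotypes. Over all genes it was 14.5% and 14.1% on the HF diet and 10.8% and 12.9% on chow. In the whole-body cohort the members had 17.8% in Maf1-/- mice and 17.6% in Ctrl, close to 17.6% and 18% over all genes. These are descriptions with no test.

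In some groups single mice held most of the extremes. In whole-body Ctrl mice none did, the most being 10 members lowest in mouse 1 and 11 highest in mouse 4. HF-fed Maf1hep-/- mouse 1 was the highest of its group in 28 of 36 members and mouse 2 the lowest in 27, against 23% and 25.9% of all genes. HF-fed Ctrl mouse 5 was the lowest of its 5 mice in 29 members, against 29.5% of all genes, and mouse 1 the highest in 21, against 18.4%. On chow, Maf1hep-/- mouse 3 was the lowest in 27 members (21.6% of all genes) and Maf1-/- mouse 4 in 20 (27.1% of all genes).

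Within HF-fed Maf1hep-/- mice the order of the mice differed between members. Ppara was highest in mice 1 and 3 (197 and 241 CPM) and lowest in mice 2 and 4 (96.8 and 113 CPM), and Pex11a, which drives peroxisome proliferation, had the same order of pairs with 153 and 114 CPM against 21.9 and 57.2 CPM. Vnn1 did likewise, with 368 and 215 CPM in mice 1 and 3 and 61.7 and 109 CPM in mice 2 and 4. Ehhadh, Cyp4a10 and Cyp4a14 were instead highest in mice 1 and 2. In HF-fed Ctrl mice, mouse 5 was the lowest for Pex11a (29.2 CPM), Vnn1 (90.3 CPM), Ehhadh, Cyp4a10 and Cyp4a14 alike.

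The effect of diet was examined within each genotype of the hepatocyte cohorts, with the same mice as in the genotype comparisons above. In Maf1hep-/- mice 7 of 36 members (19.4%) were called in edgeR, 6 higher and 1 lower on the HF diet, against 45.2% of 12964 genes (20.5% higher and 24.7% lower). In Ctrl mice 9 of 36 (25%) were called, 8 higher and 1 lower, against 50.6% of 12954 genes (22.6% higher and 28% lower). Higher calls, at 16.7% of members in Maf1hep-/- and 22.2% in Ctrl mice, stood near the shares over all genes. Cpt1a, Ppara, Acadl and Acot4 were higher and Hadhb was lower in both genotypes, 5 genes that made up 5 of 7 calls in Maf1hep-/- and 5 of 9 in Ctrl mice.

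Cpt1a, the entry step of mitochondrial oxidation, had 940.2, 591, 821 and 657 CPM in HF-fed Maf1hep-/- mice, against 453, 581, 406 and 489 CPM in Chow-fed ones. It had 914, 806, 725, 791 and 752 CPM in HF-fed Ctrl mice, against 434, 450.4, 396 and 508 CPM in Chow-fed Ctrl mice. The groups did not overlap in either genotype, as in 18.2% (Maf1hep-/-) and 18.5% (Ctrl) of all genes in this direction. The log2 fold change was 0.64 in Maf1hep-/- mice (SE 0.17, adjusted p = 0.0127 from edgeR) and 0.82 in Ctrl (SE 0.11, adjusted p = 1.00e-04).

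Ppara averaged 162 ± 68.6 CPM in HF-fed and 98.55 ± 10.05 CPM in Chow-fed Maf1hep-/- mice (SD, n = 4 each), a log2 fold change of 0.72 (SE 0.26, adjusted p = 0.0460 from edgeR). It had 159.5, 168, 158, 139 and 124 CPM in HF-fed Ctrl mice, against 68.9, 95.1, 86.4 and 103 CPM in Chow-fed Ctrl mice (log2 fold change 0.75, SE 0.13, adjusted p = 0.000799). HF-fed Maf1hep-/- mouse 2, at 96.8 CPM, lay within the Chow-fed range. The call in Maf1hep-/- mice was lost in 6 of the 8 fits that left out 1 mouse.

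Acadl, the long chain acyl-CoA dehydrogenase, averaged 233 ± 38.0 CPM in HF-fed and 184 ± 11.5 CPM in Chow-fed Maf1hep-/- mice (SD, n = 4 each), a log2 fold change of 0.35 (SE 0.12, adjusted p = 0.0439 from edgeR), with no overlap. It averaged 260 ± 16.6 CPM in HF-fed Ctrl mice (SD, n = 5) and 182 ± 12.5 CPM in Chow-fed ones (SD, n = 4), a log2 fold change of 0.50 (SE 0.09, adjusted p = 0.000656). The call in Maf1hep-/- mice was again lost in 6 of the 8 fits that left out 1 mouse.

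Acot4, a peroxisomal thioesterase for dicarboxylic acyl-CoAs, had 86.8, 22.6, 50.8 and 28.15 CPM in HF-fed Maf1hep-/- mice, against 15.3, 23.9, 8.24 and 10.3 CPM in Chow-fed ones, with a log2 fold change of 1.70 (SE 0.45, adjusted p = 0.0115 from edgeR). It had 54.7, 33.7, 31.8, 34.1 and 29.2 CPM in HF-fed Ctrl mice, against 9.44, 8.60, 15.35 and 15.04 CPM in Chow-fed Ctrl mice (1.59, SE 0.23, adjusted p = 0.000209). HF-fed Maf1hep-/- mouse 2 lay below the highest Chow-fed mouse, while the Ctrl groups were separate. Acot4 shares 9.7% of its exon bases with other genes and was fractional in all 20 Chow-fed mice.

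Hadhb had 181, 122, 132 and 138 CPM in HF-fed Maf1hep-/- mice, against 268, 297, 249.5 and 294 CPM in Chow-fed ones (log2 fold change -0.95, SE 0.14, adjusted p = 0.000336 from edgeR). It had 195, 170.2, 200.5, 162 and 139 CPM in HF-fed Ctrl mice, against 297, 287, 276 and 278 CPM in Chow-fed Ctrl mice (-0.73, SE 0.11, adjusted p = 0.000322). The groups were fully separate in both genotypes, as in 23.8% (Maf1hep-/-) and 23.4% (Ctrl) of all genes in this direction.

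Hadha, which starts 85 bases away and encodes the partner subunit, did not pass, with a log2 fold change of -0.07 in Maf1hep-/- mice (SE 0.13, adjusted p = 0.713 from edgeR) and 0.19 in Ctrl (SE 0.13, adjusted p = 0.236). The ratio of Hadhb to Hadha CPM, not corrected for length and chosen after the values were seen, was 0.271 to 0.291 in HF-fed Maf1hep-/- and 0.277 to 0.314 in HF-fed Ctrl mice, and 0.490 to 0.543 and 0.536 to 0.560 in the Chow-fed mice of the same genotypes. Among Chow-fed mice the ratio also differed between cohorts, at 0.633 to 0.751 in Maf1-/- mice and 0.545 to 0.800 in their Ctrl. Hadhb had fractional counts in 19 of 20 Chow-fed mice and Hadha in 0, and 4.4% of the 50-base but 0% of the 150-base stretches of Hadhb occur in another gene. The part of read length and counting in this difference was not tested.

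**Figure D4:**
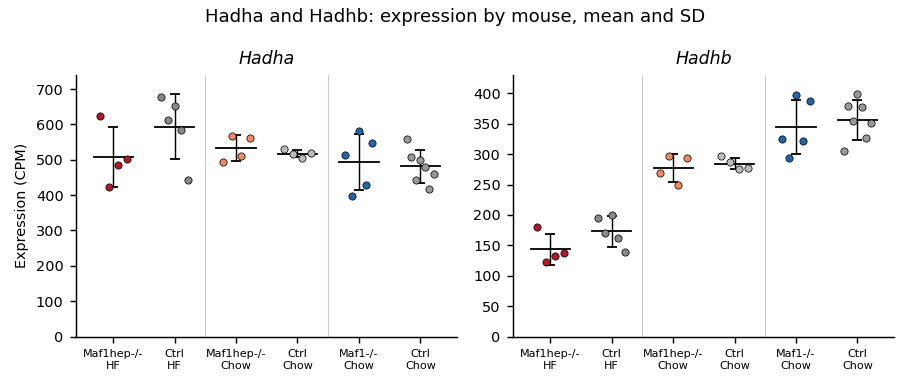
Expression in CPM (vertical axis) of Hadha and Hadhb in each mouse (points), by group (horizontal axis), with bars at the mean and SD. HF-fed mice overlap Chow-fed mice of the hepatocyte cohorts for Hadha, while for Hadhb all 9 HF-fed mice, at up to 200.5 CPM, lie below all Chow-fed mice.

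Further calls were made in 1 genotype. Cyp4a31 had a log2 fold change of -0.04 in Maf1hep-/- mice (SE 0.36). In Ctrl mice it averaged 40.3 ± 9.69 CPM on the HF diet (SD, n = 5) and 12.05 ± 2.153 CPM on chow (SD, n = 4), a log2 fold change of 1.73 (SE 0.18, adjusted p = 1.5e-05 from edgeR). Vnn1 had a log2 fold change of 0.91 in Maf1hep-/- mice (SE 0.48, adjusted p = 0.149), and in Ctrl 353, 176, 266, 183 and 90.3 CPM in HF-fed mice, against 81.7, 71.6, 70.8 and 90.4 CPM in Chow-fed ones (1.43, SE 0.31, adjusted p = 0.00289). Decr1, which reduces unsaturated chains, had 0.21 in Maf1hep-/- mice and 0.45 in Ctrl (SE 0.12, adjusted p = 0.00943). Eci2, an enoyl-CoA isomerase and the last call in Ctrl, had 0.41 in Maf1hep-/- mice and 0.47 in Ctrl (SE 0.17, adjusted p = 0.0385). The call of Eci2 was lost when any Chow-fed Ctrl mouse was left out, and without HF-fed Ctrl mouse 1 or mouse 3.

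Ppargc1a in Maf1hep-/- mice averaged 9.68 ± 2.005 CPM on the HF diet and 5.62 ± 0.967 CPM on chow (SD, n = 4 each), with no overlap and a log2 fold change of 0.79 (SE 0.18, adjusted p = 0.00541 from edgeR), against 0.43 in Ctrl (SE 0.28, adjusted p = 0.217). Angptl4 had 62.4, 32.3, 52.8 and 31.98 CPM in HF-fed Maf1hep-/- mice, against 11.6, 16.3, 14.3 and 33.6 CPM in Chow-fed ones (1.25, SE 0.34, adjusted p = 0.0142). In Ctrl its log2 fold change was 0.70 (SE 0.50, adjusted p = 0.267), where Chow-fed mouse 1 stood at 73.3 CPM and the other 3 at 10.75 to 17.47 CPM. A call in 1 genotype does not show that the diet effects differed.

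**Figure D5:**
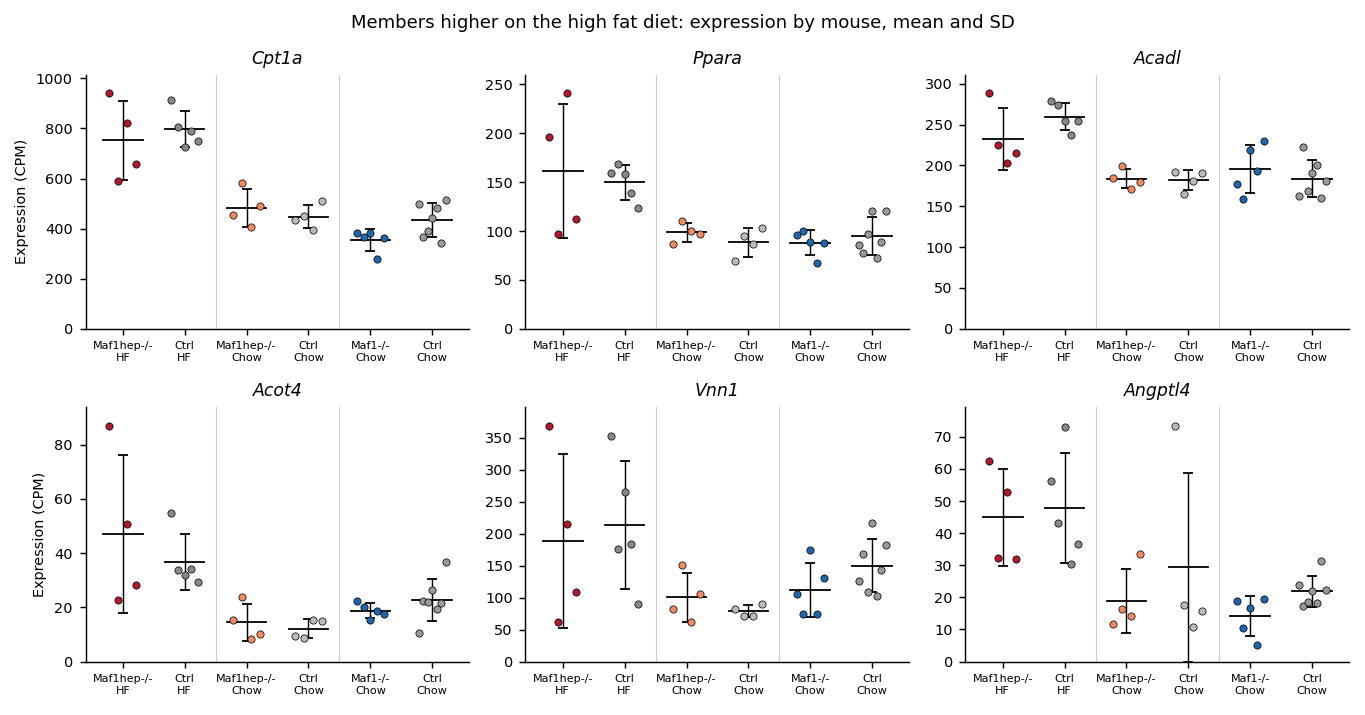
Expression in CPM (vertical axis) of 6 members called higher on the HF diet in at least 1 genotype, in each mouse (points), by group (horizontal axis), with bars at the mean and SD. For Cpt1a all 9 HF-fed mice, at 591 CPM or more, lie above all Chow-fed mice, whereas Vnn1 and Angptl4 overlap between diets.

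The remaining named members did not pass in either genotype. Ehhadh had a log2 fold change of -0.94 in Maf1hep-/- mice (SE 0.39, adjusted p = 0.0738 from edgeR) and 0.65 in Ctrl (SE 0.27, adjusted p = 0.0634). Cyp4a10 had -0.70 in Maf1hep-/- mice (SE 0.32, adjusted p = 0.0988) and 0.01 in Ctrl (SE 0.18, adjusted p = 0.956). Creb3l3 had -0.18 in Maf1hep-/- mice (SE 0.19, adjusted p = 0.449) and -0.27 in Ctrl (SE 0.15, adjusted p = 0.163), and Pdk4 had 0.01 in Maf1hep-/- mice (SE 0.35, adjusted p = 0.981) and -0.185 in Ctrl (SE 0.30, adjusted p = 0.634).

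By compartment, calls in Maf1hep-/- mice comprised 3 of 15 mitochondrial members (2 higher and 1 lower), 1 of 9 peroxisomal members and 0 of 4 microsomal members. Over all genes 45.2% were called. The compartment medians were 0.18, 0.05 and -0.36 in that order. Without HF-fed Maf1hep-/- mouse 1 the mitochondrial median was -0.0438 and the peroxisomal -0.0678. In Ctrl mice calls comprised 4 of 15 mitochondrial (3 higher and 1 lower), 2 of 9 peroxisomal and 1 of 4 microsomal members. The peroxisomal and microsomal ones were higher, and 50.6% of all genes were called. The compartment medians in Ctrl were 0.12, 0.13 and 0.13. Over all genes the medians were 0.02 in Maf1hep-/- mice and -0.01 in Ctrl. Scaling by library totals in place of TMM moved the median of all genes to 0.35 in Maf1hep-/- mice and 0.41 in Ctrl. With that shift included, 14 members were called in Maf1hep-/- mice, 13 higher, against 63.3% of all genes, and 25 in Ctrl, 24 higher, against 68.9%. Creb3l3 in Maf1hep-/- mice and Creb3l3 and Pdk4 in Ctrl turned to values above 0 with this scaling.

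In edgeR 11 members were called in Maf1hep-/- mice without HF-fed mouse 1 (40.8% of all genes) and 11 without HF-fed mouse 2 (42.7%), where 7 were called with all mice. Newly called without Maf1hep-/- mouse 1 were Acot1, Cyp4a10, Eci1, Ehhadh, Cyp4a14 and Acot2, all lower, and without mouse 2 Eci2, Pex11a, Acaa2, Hadh and Vnn1, all higher. Without HF-fed Ctrl mouse 5, 17 members were called in Ctrl mice (49.3% of all genes), where 9 were called with all mice.

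Among the 50 other pathway genes, 18 were called in Maf1hep-/- mice (11 higher and 7 lower), against 45.2% of all genes (20.5% higher and 24.7% lower). In Ctrl mice 21 were called (15 higher and 6 lower), against 50.6% of all genes (22.6% higher and 28% lower). Hacl1, a peroxisomal lyase of α-oxidation, averaged 11.6 ± 1.99 CPM in HF-fed Maf1hep-/- mice and 12.99 ± 2.497 CPM in HF-fed Ctrl, against 255 ± 20.1 CPM and 264 ± 47.3 CPM in the Chow-fed mice of the same genotypes. Its log2 fold changes were -4.45 in Maf1hep-/- mice and -4.36 in Ctrl (adjusted p = 5.4e-09 and 5.33e-09 from edgeR). Etfb, a subunit of the electron transfer flavoprotein, had -3.14 in Maf1hep-/- mice and -3.09 in Ctrl, whereas its partner Etfa had 0.77 and 0.81. Hacl1 shares 33.3% of its exon bases with other annotated genes and Etfb 58.2%, against 0% for Etfa. The part of counting in these 2 differences was not tested.

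Fgf21 was higher on the HF diet with a log2 fold change of 2.26 in Maf1hep-/- mice (SE 0.49, adjusted p = 0.00417 from edgeR) and 1.11 in Ctrl (SE 0.30, adjusted p = 0.00925). Fabp2, another fatty acid binding protein, was higher in both genotypes, at 0.92 in Maf1hep-/- mice (adjusted p = 0.000388) and 1.29 in Ctrl (adjusted p = 9.31e-06). The ω-hydroxylase Cyp4a12a was lower in both, at -1.63 in Maf1hep-/- mice (adjusted p = 0.000204) and -0.75 in Ctrl (adjusted p = 0.0273). All 6 measured refeeding-induced lipogenic genes had a log2 fold change below 0 on the HF diet in both genotypes. Of these, 2 were called lower in Maf1hep-/- mice and all 6 in Ctrl. They summed to 1450 to 4982 CPM in HF-fed and 2574 to 5834 CPM in Chow-fed Maf1hep-/- mice. In Ctrl mice the sums were 771 to 2160 CPM on the HF diet and 3124 to 6475 CPM on chow. Kupffer cell markers summed to 310 to 638 CPM in HF-fed Maf1hep-/- mice and 242 to 344 CPM in Chow-fed ones, and to 343.5 to 495 CPM in HF-fed Ctrl mice and 227 to 304 CPM in Chow-fed ones, with 4 of 10 called higher and 1 lower in Maf1hep-/- mice and 6 higher and 1 lower in Ctrl. Of 5 erythroid markers 4 were called lower in each genotype (median log2 fold change -2.61 in Maf1hep-/- mice and -3.91 in Ctrl). The sums of the 5 moved less and overlapped between diets in both genotypes. Their medians were 100.5 CPM in HF-fed and 114.7 CPM in Chow-fed Maf1hep-/- mice, and 66.88 CPM and 93.07 CPM in Ctrl. The part of counting in the erythroid calls was not tested. The 1 adipocyte marker measured was called higher (1.90 in Maf1hep-/- mice and 1.11 in Ctrl). Of 8 hepatocyte markers 2 were called lower in Maf1hep-/- mice and 3 in Ctrl, and of 8 stellate cell markers 4 were called higher and 1 lower in Maf1hep-/- mice and 2 higher in Ctrl. Their part in the diet results was not tested.

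The last comparison tested whether the genotype effect differed between diets, that is, the log2 fold change of Maf1hep-/- over Ctrl on the HF diet minus that on chow. In edgeR 0 of 36 members and 0 of 12970 genes (0%) passed, and 2 members had an unadjusted p under 0.05, both lower, against 1.98% of all genes lower and 4.62% in either direction. Cyp4a31 had a difference of -1.79 (SE 0.43, adjusted p = 0.690), from -1.36 on the HF diet and 0.44 on chow. Ehhadh had -1.61 (SE 0.51, adjusted p = 0.998), from -1.47 and 0.15. Cyp4a10 had -0.74 (SE 0.38, adjusted p = 0.998), from -0.78 and -0.04. The members were chosen with earlier results of these data known, which limits these shares as well.

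The median difference was -0.12 over the members, -0.17 over mitochondrial, -0.02 over peroxisomal and -0.72 over microsomal members, and 0.01 over all genes. DESeq2 called 1 member, Cyp4a31, against 0.0849% of all genes, and limma-voom with 0, 1 or 3 RUVr factors called 0. With the replicate block, which has the limit given above, 0 members passed and 13 had an unadjusted p under 0.05, all lower. Over all genes the shares were 6.93% in either direction and 3.49% lower. Of the 50 other pathway genes 0 passed in edgeR and 3 had an unadjusted p under 0.05, against 4.62% of all genes. Fgf21 had a difference of 1.12 (SE 0.60, adjusted p = 0.998).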

How the data were processed

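RNA from 29 mouse livers was sequenced, 1 library per mouse. The authors deposited expected counts per gene. According to the methods and submitters' notes, reads were trimmed (TrimGalore 0.6.4), mapped to mm10 (STAR 2.5.0a) and counted with RSEM, and the authors tested their 3 cohorts separately by limma-voom with RUVr factors after TMM scaling (edgeR 3.32.1). How the HF counts became whole and whether counting used strand are not given in the sources used here.

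For the present tests, the deposited expected counts were rounded. A gene entered a comparison if any of its mice reached 1 CPM. After TMM scaling, the quasi-likelihood test of edgeR 4.0.16 (R 4.3.3) was run in 5 comparisons of 2 groups and 2 differences of effects, and p-values were adjusted over all genes by Benjamini-Hochberg. A call is an adjusted p under 0.05, with no limit on fold change, and SE is |log2 fold change| divided by the square root of F. CPM levels were scaled over all 29 mice. Alternatives covered scaling (RLE or library totals), filtering (none or filterByExpr), the tool (DESeq2 1.42.0, or limma 3.58.1 voom with 0, 1 or 3 RUVr factors), a replicate block, a joint fit of all 29 mice, and leaving out each mouse. The fit was tested on simulated data. Positions and shared stretches come from GENCODE vM21 (GRCm38), where 12983 of 12992 genes were found, and promoters from RefSeq.

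Named in full were Ppara, Ppargc1a, Creb3l3, Ehhadh, Cyp4a10 and Pdk4, the 4 members with the smallest p per comparison (up to 8 where called) and 3 per difference. Of the other pathway genes (50 measured of 52), Fgf21 and up to 4 called ones by p are named, and other genes of this rule are not reported here. The members and lists were chosen with earlier results of these data known.

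For the replicate block, deviations from group means were correlated across genes between same-numbered mice. In the HF cohort r was 0.367, 0.102, 0.231 and 0.246, which is read as pairing, although for mice 2 and 3 a differently numbered mouse gave a higher r. The pairing was inferred from the values alone, since the labels do not say what a number marks, and it goes against the methods, which call the data unpaired. In the other comparisons the numbers did not pair the mice.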

Additional observations from a re-analysis of the deposited data

Results flagged for a closer look

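Over 19 named members in 6 groups, 5 of 114 sets of mice had a mouse far from the others by Dixon's criterion at the 95% level, about the 1 in 20 that chance gives. Angptl4 stood at 73.3 CPM in Chow-fed Ctrl mouse 1 of the hepatocyte cohort, against 10.75 to 17.47 CPM in the other 3 mice. Acot1 stood at 70.2 CPM in mouse 2 of the same group, against 88.7 to 90.3 CPM in the others. Creb3l3 stood at 126.0 CPM in HF-fed Ctrl mouse 5, against 205 to 217 CPM in the other 4. Acot4 stood at 54.7 CPM in HF-fed Ctrl mouse 1, against 29.2 to 34.1 CPM in the others. Cpt1a stood at 280.4 CPM in Maf1-/- mouse 4, against 363 to 383 CPM in the other 4.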

How the results depend on the processing

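Counts of called members depended on the setting. For Maf1-/- against Ctrl mice, 0 were called with all mice in edgeR (0.0156% of all genes) and 2 with DESeq2 (2.46%). With 1 and 3 RUVr factors 9 and 15 were called (33.6% and 47.9% of all genes). A fit of all 29 mice called 3 (17.4% of all genes), and fits with 1 mouse left out 0 to 9 (35.4% at 9). For HF-fed Maf1hep-/- against Ctrl mice, DESeq2 called 1 (0.453% of all genes), 3 RUVr factors 1 (1.41%), and fits with 1 mouse left out 0. For diet in Maf1hep-/- mice, 7 (45.2% of all genes) became 14 with library totals (63.3%). The count was 14 and 19 with 1 and 3 RUVr factors (48.4% and 56% of all genes) and 5 with the replicate block (40%). With 1 mouse left out it was 5 to 11 (40.8% and 42.7% of all genes at 11). For diet in Ctrl mice, 9 (50.6% of all genes) became 25 with library totals (68.9%). The count was 21 with 3 RUVr factors (63.2% of all genes) and 13 with the block (42.9%). With 1 mouse left out it was 8 to 17 (49.3% of all genes at 17). For the difference between diets DESeq2 called 1 (0.0849% of all genes). For the difference between lines, 1 and 3 RUVr factors called 3 and 4 (14% and 24.5% of all genes). Fits with 1 mouse left out called 0 to 2 there (8.16% of all genes at 2). In Chow-fed Maf1hep-/- mice each alternative called 0, the block included. The cause was not tested.

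Some log2 fold changes turned sign. With library totals, Creb3l3 had 0.0323 and Cyp4a10 0.0271 in Chow-fed Maf1hep-/- mice, and for diet Creb3l3 had 0.15 and Pdk4 0.21 in Ctrl and Creb3l3 0.14 in Maf1hep-/- mice. With the block, Ppara had -0.065 and Creb3l3 -0.14 in HF-fed Maf1hep-/- mice. With 0, 1 and 3 RUVr factors, Cyp4a10 had -0.0184, -0.0235 and -0.0192 for diet in Ctrl. With 1 mouse left out, Ppara ranged over -0.13 to 0.0041 in Maf1-/- mice. In Chow-fed Maf1hep-/- mice Acot3 ranged over -0.0512 to 1.28, Ppargc1a -0.12 to 0.20, Creb3l3 -0.072 to 0.0399, Ehhadh -0.0541 to 0.30, Cyp4a10 -0.21 to 0.0822 and Pdk4 -0.23 to 0.50. In HF-fed Maf1hep-/- mice Ppara ranged over -0.16 to 0.29 and Creb3l3 -0.10 to 0.20. For diet, Cyp4a10 ranged over -0.0609 to 0.15 and Pdk4 -0.39 to 0.15 in Ctrl, and Pdk4 -0.28 to 0.39 in Maf1hep-/- mice. None of these had passed the test in edgeR with all mice. Over all alternatives, 1029 values of named members kept their direction and side of the threshold, 44 passed only in the alternative, 15 lost the call and 36 turned sign. Of the compartment medians, 465 moved by less than the spread between mice and 15 by more. The 15 were the peroxisomal median in Chow-fed Maf1hep-/- mice (-0.0206 to 0.24) and medians for diet, 0.50 to 0.85 with library totals, 0.22 (mitochondrial, Ctrl) with the block, and, with 1 mouse left out, -0.0438 (mitochondrial, Maf1hep-/-), 0.23 (mitochondrial, Ctrl) and 0.21 (regulators, Ctrl). The lowest count of a member in a mouse was 54, and counting error was not set against the spread between mice.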
